A study of Mus musculus with 18 samples.

Results

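Whether mammary glands that lack Cip2a change differently up to the endpoint of DMBA carcinogenesis was asked with a difference of differences over 4 groups of mice. It is the change from untreated to endpoint in Cip2a-/- mice minus the same change in wild type (WT) mice, called the interaction here and given on the log2 scale. A negative value means that the change in Cip2a-/- glands lay below the change in WT glands, and a positive value that it lay above. The libraries were chosen by the genotype and treatment in the labels, which gave 12 of the 18 libraries of the series, 3 in each of 4 groups. The other 6 libraries, taken 2 weeks after the last dose, entered only the shared estimate of the spread.

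Whole mammary gland tissue without lymph nodes was taken from mice of a mixed C57BL/6Jx129 background, either WT or Cip2a-/-, and polyA RNA was sequenced. Untreated WT and untreated Cip2a-/- mice received no DMBA. Endpoint mice of both genotypes were given 1 mg of DMBA in oil by gavage weekly for 6 weeks from an age of 12 to 14 weeks, and were killed because of tumours that DMBA had induced in any tissue. The gland sampled was itself free of tumour. The age of the mice at sampling, the time between the last dose and the endpoint and any oil-only control group were not stated in the labels, so DMBA, gavage, age and the presence of a tumour elsewhere cannot be told apart within an endpoint change. The deletion is labelled Cip2a-/- with no tissue restriction. The labels number the libraries of a group without saying that each came from a separate mouse, so p-values measure the spread between these samples.

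CIP2A binds and restrains the tumour suppressor phosphatase PP2A, which removes phosphates from many cell cycle and growth proteins, Myc among them. Genes that cells need to copy their DNA are switched on by E2F transcription factors once the retinoblastoma proteins are phosphorylated, and the genes of G2 and mitosis follow through CHR promoter elements and the factors that bind them. DMBA (7,12-dimethylbenz[a]anthracene) is a polycyclic aromatic hydrocarbon that cytochrome P450 enzymes and epoxide hydrolase convert to metabolites that bind DNA, and it is a classical inducer of mammary tumours in rodents.

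Library totals ranged from 16329067 to 24586404 reads over the 12 libraries, and 15482 genes passed the filter on low counts. Cip2a itself, listed under its older symbol C330027C09Rik (chr16:48994157-49019716, GRCm38), followed the labels. Untreated WT glands had 42, 29 and 15 Cip2a reads and endpoint WT glands 51, 126 and 25, against 1, 1 and 0 in untreated and 0, 0 and 0 in endpoint Cip2a-/- glands. Both Cip2a-/- groups lay under a floor of 3 reads per group, so no interaction value is given for Cip2a. In a principal component analysis of the 12 libraries the first component held 44.4% of the variance, and WT endpoint library 1 lay farthest out on it. That gland also had the highest summed levels of T cell, B cell, skeletal muscle and brown fat markers of the 12.

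No gene passed the test of the interaction. With edgeR's quasi-likelihood F-test and Benjamini-Hochberg adjustment over all genes, 0 of the 15482 genes (0%) had an adjusted p under 0.05, and the smallest adjusted p was 0.490. At an unadjusted p under 0.05 there were 1553 genes, of which 501 (3.24%) had a higher and 1052 (6.79%) a lower endpoint change in Cip2a-/- glands. DESeq2 called 34 genes at an adjusted p under 0.05, limma voom 0, and voom with library quality weights 0. The DESeq2 calls included genes described below, Hells among them, but also Mstn and Sln with extreme fitted values of -26.1 and -26.5. Spp1, whose value rests on 1 gland, was called by DESeq2 as well. Everything below is therefore a description of values with their errors, and "lower" or "higher" with a count means an unadjusted p under 0.05. The median interaction over all genes was -0.06. Without WT endpoint library 1 the higher and lower genes numbered 297 and 439, and without WT endpoint library 2 they numbered 1604 and 1771. A stricter count took genes that kept an unadjusted p under 0.05 and their direction in each of the 12 fits that left out 1 library. It held 146 genes with a higher change (0.943%) and 248 with a lower one (1.60%).

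The changes that are subtracted in the interaction were small in number too. In WT glands 5 genes (0.0323%) passed the test between endpoint and untreated, and all 5 fell: the predicted gene Gm6936, which lies on the chromosome of Cip2a (chr16:49980460-49997475), by 5.29, the matrix protein genes Matn2 and Abi3bp by 2.04 and 1.95, thrombomodulin (Thbd) by 1.76, and the proton pump subunit gene Atp6v0e2 by 1.26 on the log2 scale. The count in WT was 0 without WT endpoint library 1, 46 without WT endpoint library 2, 25 without Cip2a-/- endpoint library 3 and between 1 and 8 without each of the others. At an unadjusted p under 0.05 there were 1865 genes in WT (12.0%). In Cip2a-/- glands 0 genes passed (2268 at an unadjusted p under 0.05, 14.6%), and 9 without Cip2a-/- endpoint library 1. DESeq2 called 306 genes in WT and 277 in Cip2a-/- glands. Between genotypes, 0 genes passed in untreated glands by edgeR (352 at an unadjusted p under 0.05, 2.27%, and 6 by DESeq2). In endpoint glands 1 gene passed (0.00646%), Cip2a itself, and DESeq2 called 89. At an unadjusted p under 0.05 the groups differed in 1659 genes (10.7%). The count of called genes was 6 without WT endpoint library 2 and 1 without Cip2a-/- untreated library 3, WT endpoint library 3 or Cip2a-/- endpoint library 2. It was 0 without any one of the other libraries and 0 in the fit to the 12 libraries alone. The endpoint changes of the genotypes have no library in common, but each gene's interaction uses all 4 groups, so an interaction can come from the untreated groups, the endpoint groups or both.

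Genes for copying DNA were mostly on the lower side. Of 37 E2F-driven S phase genes, all of which were tested, 27 were lower in the interaction and 0 higher at an unadjusted p under 0.05, beside 6.79% lower and 3.24% higher over all genes. Their median interaction was -1.40, and 36 of the 37 values were negative. The median endpoint change was 0.82 in WT and -0.70 in Cip2a-/- glands (log2), and 33 of the 37 genes had a positive WT value and a negative Cip2a-/- value, a combination that 29.0% of all genes showed. Genes of 1 list vary together from gland to gland, so these counts are not independent. Both the untreated and the endpoint groups entered these values: the median difference of Cip2a-/- from WT was 0.71 in untreated and -0.60 in endpoint glands.

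The promoters of the S phase genes hold E2F motifs more often than the promoters of all genes tested, as a description of the list. RefSeq promoter sequences (build GRCm38.p6, 250 bases before to 50 after the annotated start) were matched for 12090 of the genes tested, 30 of the 37 S phase genes and 32 of the 40 G2 and M phase genes described further on. The E2F motifs TTTCCCGC, TTTGGCGC or TTTCGCGC on either strand were found in 11 of the 30 S phase promoters (36.7%), in 3 of the 32 G2 and M promoters (9.38%) and in 454 of all 12090 (3.76%). The CHR motif TTTGAA on either strand was found in 4 (13.3%), 23 (71.9%) and 1795 (14.8%) of them. A gene counted when any of its listed promoters held the motif. The lists were drawn up around these regulators. Shown are the promoters of the S phase genes with the smallest interaction p among those with an E2F motif, Hells (chr19:38930740-38931039, plus strand) and Mcm5 (chr8:75109259-75109558, plus strand), with the E2F motifs in capitals. Hells has TTTCCCGC starting 62 bases before the start. Mcm5 has TTTCGCGC on the printed strand starting 153 bases before the start, and TTTGGCGC on the other strand in letters that overlap it, from 149 bases before.
Hells: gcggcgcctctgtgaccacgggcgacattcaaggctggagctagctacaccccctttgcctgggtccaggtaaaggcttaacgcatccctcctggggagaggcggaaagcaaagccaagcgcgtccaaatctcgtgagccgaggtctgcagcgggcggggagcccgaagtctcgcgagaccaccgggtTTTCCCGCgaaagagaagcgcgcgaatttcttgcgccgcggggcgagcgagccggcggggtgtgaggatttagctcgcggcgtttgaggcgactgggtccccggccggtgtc
Mcm5: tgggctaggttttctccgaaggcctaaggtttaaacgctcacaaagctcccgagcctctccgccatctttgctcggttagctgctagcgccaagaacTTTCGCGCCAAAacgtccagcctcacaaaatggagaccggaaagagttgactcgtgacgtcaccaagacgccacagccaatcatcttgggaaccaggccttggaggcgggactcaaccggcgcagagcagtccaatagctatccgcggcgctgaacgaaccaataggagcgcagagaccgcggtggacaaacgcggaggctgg
For the G2 and M phase genes the same choice with CHR motifs in capitals gave Ncapg2 (chr12:116405186-116405485, plus strand), with TTTGAA 18 bases before the start, and Ect2 (chr3:27153829-27154128, minus strand), with TTTGAA 114 bases before and again 39 bases after it. Ect2 has 2 promoters listed, and the first that held the motif is shown. The Ncapg2 promoter also holds the E2F motif TTTCCCGC on the other strand, both before and after its CHR motif, left in small letters here.
Ncapg2: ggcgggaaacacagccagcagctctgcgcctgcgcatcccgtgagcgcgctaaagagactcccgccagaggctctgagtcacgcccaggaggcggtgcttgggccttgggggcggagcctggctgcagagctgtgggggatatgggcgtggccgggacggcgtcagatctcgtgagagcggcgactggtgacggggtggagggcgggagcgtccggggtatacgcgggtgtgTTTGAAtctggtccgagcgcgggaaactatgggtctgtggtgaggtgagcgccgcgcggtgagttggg
Ect2: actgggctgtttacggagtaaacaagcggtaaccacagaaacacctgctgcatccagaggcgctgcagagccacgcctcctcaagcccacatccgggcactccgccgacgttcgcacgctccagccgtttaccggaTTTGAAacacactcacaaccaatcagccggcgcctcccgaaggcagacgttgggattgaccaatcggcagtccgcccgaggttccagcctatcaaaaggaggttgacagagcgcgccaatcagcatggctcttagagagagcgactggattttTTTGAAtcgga

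Hells, which encodes a chromatin remodelling helicase needed for DNA methylation, had the smallest p of all genes in the interaction (chr19:38930262-38970470). Its level was 1.91, 1.73 and 1.27 CPM (read counts scaled to library size, by TMM) in untreated WT glands and 7.48, 5.69 and 1.77 CPM in endpoint WT glands. In Cip2a-/- glands it was 3.05, 7.70 and 7.18 CPM untreated and 1.60, 1.29 and 1.77 CPM at the endpoint. The 3 untreated Cip2a-/- glands all lay above the 3 endpoint ones, whereas in WT the lowest endpoint gland lay within the range of the untreated ones. The interaction was -3.54 ± 0.66 (SE, 3 libraries per group; adjusted p = 0.490), made of a WT change of 1.60 and a Cip2a-/- change of -1.94. It stayed between -3.91 and -3.13 when each library was left out.

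The genes for licensing and opening replication origins came first in number. Of 12 such genes 10 were lower, with a median of -1.62, and 8 kept their direction and an unadjusted p under 0.05 in every leave-one-out fit. Mcm5, a subunit of the replicative helicase (chr8:75109468-75128439), stood at 23.6, 13.0 and 9.41 CPM in untreated and 52.7, 28.5 and 30.9 CPM in endpoint WT glands. Cip2a-/- glands had 10.4, 44.8 and 49.9 CPM untreated and 15.2, 7.04 and 14.2 CPM at the endpoint. The WT groups did not overlap, but untreated Cip2a-/- library 1 lay within the endpoint range of its genotype, far below the other 2 untreated glands. The interaction of Mcm5 was -2.81 ± 0.70 (adjusted p = 0.490). The other helicase subunits Mcm2 and Mcm6 had interactions of -2.04 ± 0.56 and -2.59 ± 0.78, and untreated Cip2a-/- library 1 was again the low gland of its group, at 12.0 CPM against 36.4 and 43.2 CPM for Mcm2 and at 19.1 against 63.7 and 62.7 CPM for Mcm6. The loading factors Cdc6 and Cdt1 had -1.61 ± 0.55 and -2.09 ± 0.70.

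Among the genes with the smallest p were also Cdc7 and Gmnn, which are not on the list. Cdc7, the kinase that activates the loaded helicase (chr5:106964315-106984440), was at 7.72, 7.98 and 10.9 CPM in untreated and 14.6, 11.0 and 13.4 CPM in endpoint WT glands. Glands of Cip2a-/- mice had 6.93, 22.2 and 15.4 CPM untreated and 5.36, 5.80 and 5.48 CPM at the endpoint. Cdc7 was thus 1 of 37 genes (0.239%) whose endpoint libraries all lay above the untreated ones in WT and all below them in Cip2a-/- glands. With 3 libraries per group random order also gives this layout in some genes, so a small share alone does not mark it as unusual. The interaction was -1.97 ± 0.46. Gmnn, which encodes geminin, the protein that blocks a second licensing in the same cycle, had -2.23 ± 0.54. It was at 4.81, 3.63 and 3.16 CPM in untreated WT, 18.7, 7.66 and 7.01 CPM in endpoint WT, 3.65, 8.31 and 8.80 CPM in untreated Cip2a-/- and 3.96, 3.98 and 4.76 CPM in endpoint Cip2a-/- glands. Its WT groups were apart, whereas untreated Cip2a-/- library 1 lay below all 3 endpoint glands of its genotype.

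At the fork, 4 of 7 polymerase, clamp and clamp loader genes were lower (median -1.27). Pole, the catalytic subunit of the polymerase of the leading strand, was at 7.33, 4.80 and 5.10 CPM in untreated and 12.2, 12.1 and 11.1 CPM in endpoint WT glands. Cip2a-/- glands were at 6.22, 17.3 and 16.6 CPM untreated and 6.27, 2.96 and 6.64 CPM at the endpoint. All 3 endpoint WT glands lay above every untreated WT and every endpoint Cip2a-/- gland, and the interaction was -2.37 ± 0.51. The clamp loader gene Rfc4 had -1.70 ± 0.40, with endpoint levels of 13.6, 11.0 and 9.42 CPM in WT and 7.02, 6.29 and 6.31 CPM in Cip2a-/- glands. Pcna, the sliding clamp, had a smaller value of -0.75 ± 0.37, with an unadjusted p of 0.0628.

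Nucleotide supply genes were lower in 5 of 6 cases (median -1.37), among them the ribonucleotide reductase subunits Rrm1 (-1.44 ± 0.39) and Rrm2 (-2.51 ± 1.02). Chromatin and histone supply genes were lower in 4 of 5, with Uhrf1, which recruits the maintenance DNA methyltransferase, at -3.33 ± 0.97. All 3 recombination and base repair genes were lower. Of 4 cyclin E and E2F genes 1 was lower, Ccne2 at -1.55 ± 0.68. Ccne1 had -0.49 ± 0.52, E2f2 -0.34 ± 1.25 and E2f1 0.31 ± 0.45. Differences between the roles were not tested.

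**Figure D1:**
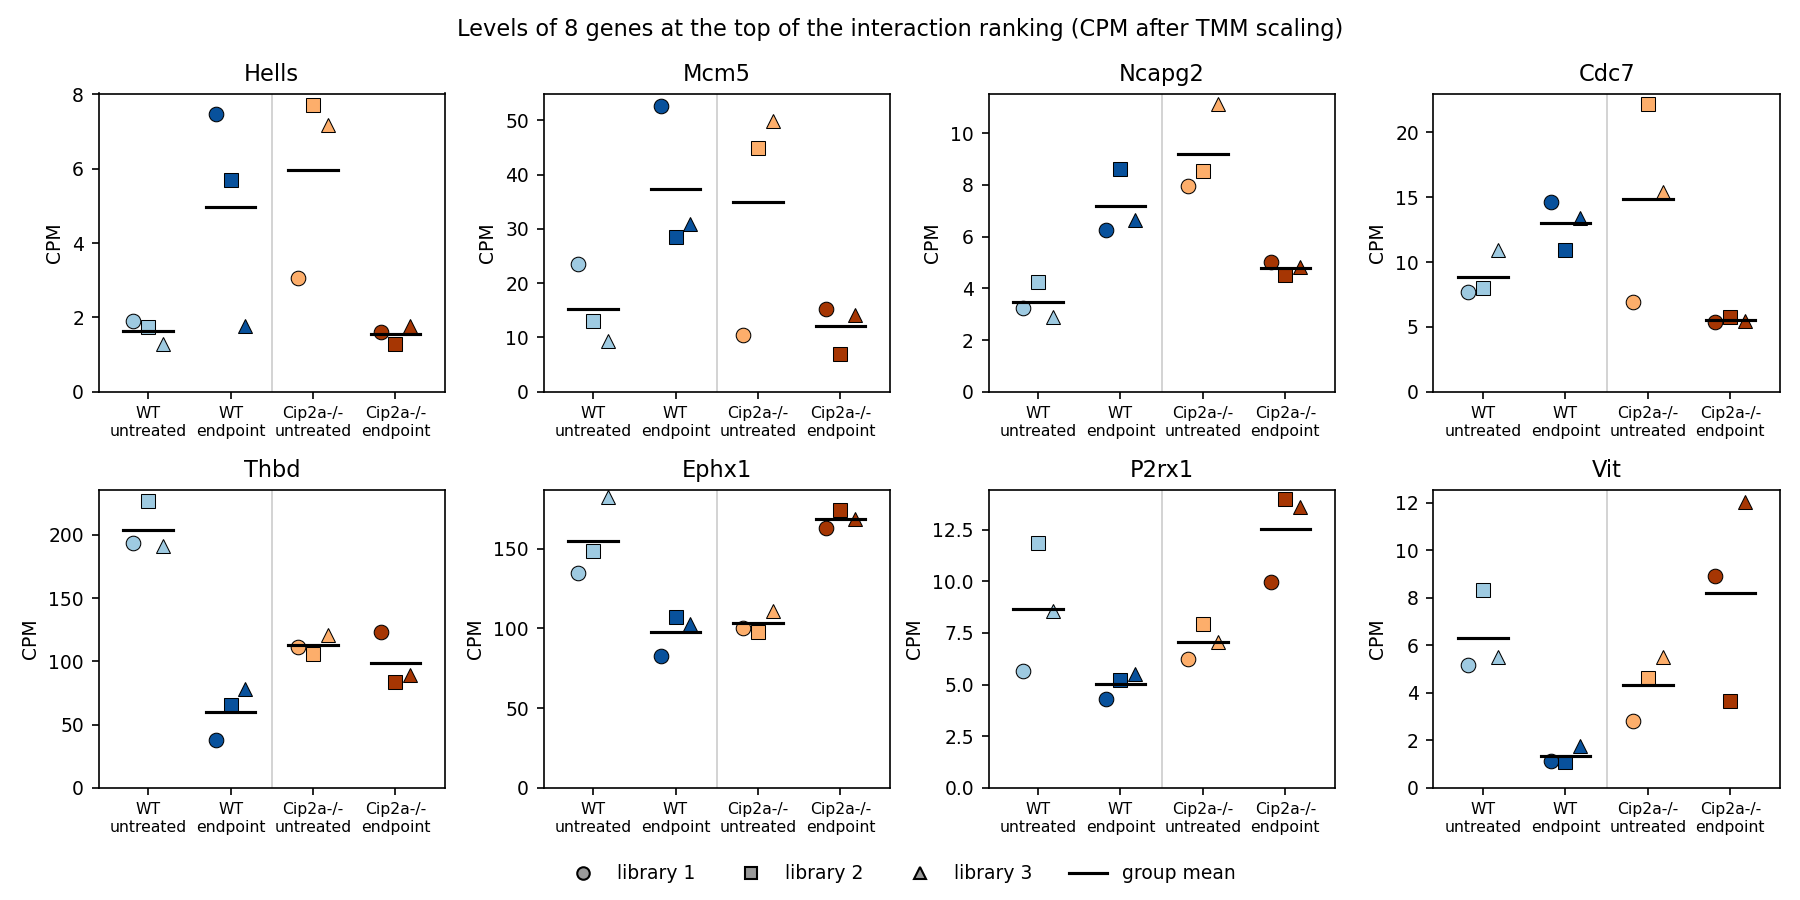
Levels of 8 genes in TMM-scaled CPM (vertical axis, linear from 0) in the 4 groups, with each point a library and each bar a group mean. In the upper row (Hells, Mcm5, Ncapg2, Cdc7) the mean goes up from untreated to endpoint in WT and down in Cip2a-/- glands; in the lower row (Thbd, Ephx1, P2rx1, Vit) it goes down in WT.

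Genes of G2 and mitosis had the same direction with a wider spread. Of 40 listed genes 25 were lower and 0 higher (background 6.79% and 3.24%), the median interaction was -2.18, and 39 values were negative. The median endpoint change was 1.43 in WT and -0.68 in Cip2a-/- glands. Only 10 of the 40 kept their direction and an unadjusted p under 0.05 in every leave-one-out fit, against 19 of the 37 S phase genes, a difference that was not tested. The count of lower genes ranged from 10, without WT untreated library 3, Cip2a-/- untreated library 2 or Cip2a-/- untreated library 3, to 38 without Cip2a-/- untreated library 1. It was 13 without WT untreated library 2 or without WT endpoint library 2, and 10 in a fit to the 12 libraries alone.

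Chromosome structure genes were lower in 6 of 7 cases. Ncapg2, a condensin II subunit that compacts mitotic chromosomes (chr12:116405351-116463532), was at 3.25, 4.24 and 2.88 CPM in untreated and 6.27, 8.63 and 6.64 CPM in endpoint WT glands. Without Cip2a it was at 7.95, 8.53 and 11.1 CPM untreated and 5.01, 4.51 and 4.81 CPM at the endpoint. No group overlapped the group it is compared with in either genotype, and the directions were opposite. The interaction was -2.00 ± 0.43, between -2.17 and -1.84 when each library was left out. Top2a, the topoisomerase that untangles sister chromatids, had -2.76 ± 1.14.

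Spindle checkpoint genes were lower in 5 of 6 cases. Mad2l1, a checkpoint protein that holds back anaphase, was at 6.85, 7.03 and 5.15 CPM in untreated and 15.1, 14.9 and 9.92 CPM in endpoint WT glands, against 5.08, 11.8 and 14.2 CPM in untreated and 9.48, 5.32 and 8.19 CPM in endpoint Cip2a-/- glands. The WT groups were apart and the Cip2a-/- groups overlapped, with an interaction of -1.50 ± 0.46. The checkpoint kinases Ttk and Bub1 had -3.36 ± 1.11 and -3.18 ± 1.08. Motor and cytokinesis genes were lower in 8 of 11 cases. They include Ect2, which acts at the division plane, at -2.93 ± 0.89, and the spindle motor gene Kif11 at -2.97 ± 1.09. Anln was the 1 positive value of the list at 0.27 ± 0.71. Kinases, cyclins and Foxm1, a transcription factor of this programme, were lower in 4 of 11, and centromere genes in 2 of 5. Foxm1 had -1.84 ± 0.56. The proliferation marker Mki67 had -2.09 ± 1.34 with an unadjusted p of 0.139, and its endpoint Cip2a-/- glands ran from 1.02 to 64.5 CPM.

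Scores per gland, the mean over a list of log2 CPM centred for each gene, show where the groups lie. For the S phase list they were -0.05, -0.47 and -0.55 in untreated and 0.58, 0.48 and 0.16 in endpoint WT glands. They were -0.61, 0.73 and 0.80 in untreated and -0.20, -0.80 and -0.07 in endpoint Cip2a-/- glands. The WT groups did not overlap. Untreated Cip2a-/- library 1 lay with the endpoint glands of its genotype and below the other 2 untreated ones. For the G2 and M list the scores were -0.16, -0.65 and -1.04 in untreated WT, 0.84, 1.06 and 0.23 in endpoint WT, -1.29, 1.14 and 1.16 in untreated Cip2a-/- and 0.47, -2.11 and 0.34 in endpoint Cip2a-/- glands. Endpoint Cip2a-/- library 2 was the lowest of the 12. In bulk tissue, fewer cells of a type and less RNA per cell cannot be told apart, so a lower level of these genes can stand for fewer cycling cells or less of their RNA in each.

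**Figure D2:**
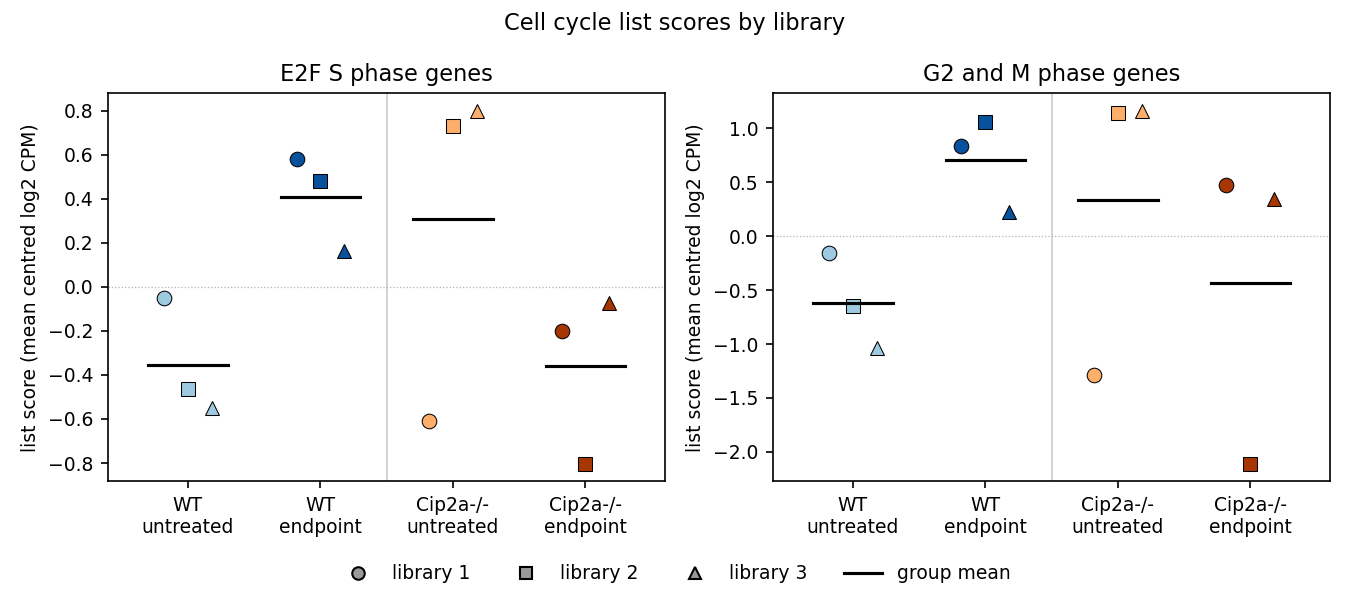
Score of each gland (mean centred log2 CPM, vertical axis) for the 37 S phase genes and the 40 G2 and M phase genes in the 4 groups, with points for libraries and bars for group means. Endpoint WT glands lie above untreated WT glands in both panels, and untreated Cip2a-/- library 1 lies far below the other 2 of its group.

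**Figure D3:**
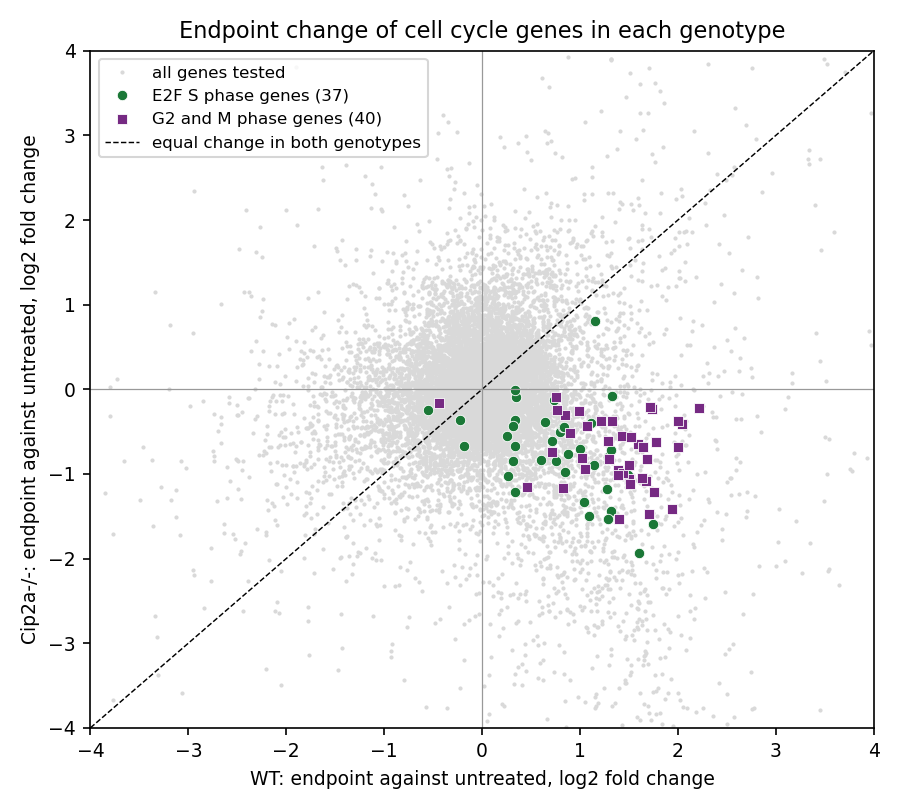
Endpoint change in WT (horizontal) against endpoint change in Cip2a-/- glands (vertical), both as log2 fold change, for all genes tested (grey) and the cell cycle lists; genes beyond 4 on either axis are not drawn. The lists sit in the lower right, with 33 of 37 S phase and 39 of 40 G2 and M phase genes at a positive WT and a negative Cip2a-/- value.

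Markers of lymphocytes, which can divide, are given beside these values. The summed T cell markers ran from 48.7 to 1196 CPM in endpoint WT and from 33.8 to 55.6 CPM in endpoint Cip2a-/- glands, and from 57.4 to 361 CPM and from 71.2 to 733 CPM in the untreated groups. The S phase and G2/M scores were taken for the gland with the most T cell markers in each group. They were -0.05 and -0.16 in WT untreated library 1 (361 CPM) and 0.58 and 0.84 in WT endpoint library 1 (1196 CPM). In Cip2a-/- glands they were 0.80 and 1.16 in untreated library 3 (733 CPM) and -0.07 and 0.34 in endpoint library 3 (55.6 CPM). Each of these glands had the highest S phase score of its group. The G2/M score was the highest of the group in the untreated glands but not in the endpoint ones. Among glands with fewer such markers, untreated Cip2a-/- library 2, at 0.73 and 1.14, had 71.2 CPM, and WT endpoint library 2, at 0.48 and 1.06, had 48.7 CPM. Without WT endpoint library 1 the median interaction was -1.40 for the S phase and -2.13 for the G2 and M list, with 24 of 37 and 17 of 40 genes lower. Without both that gland and untreated Cip2a-/- library 3, the glands with the most T and B cell markers, the medians were -1.15 and -1.81, with 17 and 6 genes lower. The part of lymphocytes in the cycle values was not tested beyond this.

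Repair genes were partly on the lower side. Of 29 DNA damage response genes 11 were lower and 1 higher, beside 6.79% and 3.24% of all genes. Their median was -0.61. The lower genes numbered 7 without WT untreated library 2, Cip2a-/- untreated library 3 or WT endpoint library 2. The lower ones included Chek1, the kinase that slows the cycle when replication stalls (-2.84 ± 0.84), Fanci of the crosslink repair pathway (-2.62 ± 0.82) and the recombination gene Rad51c (-1.74 ± 0.54). Levels of Chek1 were 0.867, 0.949 and 0.609 CPM in untreated WT, 2.03, 4.80 and 1.64 CPM in endpoint WT, 1.02, 4.90 and 3.47 CPM in untreated Cip2a-/- and 1.25, 0.752 and 2.54 CPM in endpoint Cip2a-/- glands. Ercc1, a nuclease subunit of excision repair, was the higher one at 1.04 ± 0.37. The end joining gene Xrcc6 (Ku70, chr15:81987833-82040085), not on the list, had -1.92 ± 0.47. Its endpoint WT glands were at 138, 33.8 and 82.0 CPM and all other 9 glands between 28.4 and 53.7 CPM. Without WT endpoint library 2, the 1 of the 3 at the level of the rest, Xrcc6 was the 1 gene that passed edgeR's test, at -2.30 with an adjusted p of 0.0189. Of 27 p53 targets 0 were lower and 1 higher, with a median of -0.07, and the higher count was near the share of all genes. That 1 was the death receptor gene Fas at 0.77 ± 0.26.

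On the higher side, an enzyme gene of xenobiotic metabolism had groups that did not overlap. Ephx1 (chr1:180989556-181017569) encodes the microsomal epoxide hydrolase that acts on epoxides of polycyclic hydrocarbons such as DMBA. Its level was 135, 148 and 182 CPM in untreated and 82.8, 107 and 103 CPM in endpoint WT glands. In Cip2a-/- glands it was 101, 97.8 and 111 CPM untreated and 163, 174 and 169 CPM at the endpoint. The groups did not overlap within either genotype and went opposite ways, which 18 genes (0.116%) did in this direction. As for Cdc7, the share is a description without a test and does not mark the layout as unusual. The interaction was 1.38 ± 0.33 (adjusted p = 0.490), between 1.25 and 1.46 when each library was left out. Other genes with this layout were Gpx1, a glutathione peroxidase that removes hydrogen peroxide, at 0.95 ± 0.26, the ATP-gated channel gene P2rx1 at 1.62 ± 0.38 and the calcium channel gene Cacna1h at 1.27 ± 0.31. P2rx1 was at 5.64, 11.8 and 8.58 CPM in untreated WT, 4.31, 5.22 and 5.50 CPM in endpoint WT, 6.22, 7.92 and 7.07 CPM in untreated Cip2a-/- and 9.98, 14.0 and 13.6 CPM in endpoint Cip2a-/- glands. The WT groups came close to overlapping, at 5.64 CPM for the lowest untreated and 5.50 CPM for the highest endpoint gland. Nqo1, a quinone reductase driven by Nrf2, had 1.30 ± 0.37, but of 18 Nrf2 targets only Ephx1 and Nqo1 were higher, 1 was lower (Slc7a11) and the median was 0.13. The shares of all genes were 3.24% higher and 6.79% lower.

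Thbd and Atp6v0e2 had most of their interaction on the WT side of the subtraction. Thbd (chr2:148404471-148408188), the thrombin receptor of vessel walls, was at 193, 227 and 191 CPM in untreated and 37.7, 65.4 and 77.8 CPM in endpoint WT glands. Cip2a-/- glands had 111, 106 and 121 CPM untreated and 123, 84.0 and 89.0 CPM at the endpoint. The fall in WT passed the test (-1.76 ± 0.25, edgeR adjusted p = 0.0225), the Cip2a-/- value was -0.19 ± 0.25, and the interaction was 1.56 ± 0.35. Atp6v0e2 (chr6:48537569-48541801) was at 61.1, 49.1 and 52.9 CPM in untreated WT glands, with the other 9 glands between 19.6 and 34.4 CPM. Its fall in WT passed (-1.26 ± 0.18, edgeR adjusted p = 0.0225) and the interaction was 1.09 ± 0.25. For both genes untreated Cip2a-/- glands were already below untreated WT glands, with differences of -0.86 ± 0.25 for Thbd and -0.96 ± 0.18 for Atp6v0e2 (log2) that did not pass the test. The 3 other genes that fell in WT had interactions of 0.72 ± 0.33 (Abi3bp), 1.47 ± 0.43 (Matn2) and 2.98 ± 0.88 (Gm6936). Abi3bp was lower at the endpoint in Cip2a-/- glands as well, at 45.8, 33.0 and 60.3 CPM untreated and 19.3, 18.1 and 21.7 CPM at the endpoint, with no overlap.

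Vit, which encodes the matrix protein vitrin (chr17:78508051-78627409), had the smallest p on the higher side. It was at 5.16, 8.32 and 5.48 CPM in untreated and 1.14, 1.08 and 1.77 CPM in endpoint WT glands. In Cip2a-/- glands it was at 2.81, 4.62 and 5.50 CPM untreated and 8.92, 3.65 and 12.0 CPM at the endpoint. The WT groups were apart and the Cip2a-/- groups overlapped, with an interaction of 3.17 ± 0.67. The basement membrane collagen gene Col4a4 had 2.32 ± 0.54, with a WT change of -2.32 ± 0.40. In other genes the WT value was near 0 and the Cip2a-/- value positive. Mgat3, a glycosyltransferase that adds the bisecting residue to N-glycans, was at 8.24, 8.65 and 11.8 CPM and 5.39, 13.1 and 8.53 CPM in untreated and endpoint WT glands, and at 8.55, 9.24 and 9.61 CPM and 21.6, 22.5 and 34.9 CPM in Cip2a-/- glands. Its interaction was 1.61 ± 0.43, and those of the Ras-family gene Mras, the clathrin light chain gene Cltb and Dbndd2 were 1.11 ± 0.29, 0.97 ± 0.25 and 0.81 ± 0.21.

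Stroma lists had positive medians with few genes past the unadjusted threshold, which 3.24% of all genes passed on the higher side. All 16 endothelial genes were positive, with a median of 0.77, 4 higher and 0 lower. The count of 4 was 13 without WT endpoint library 3, and 2 without WT endpoint library 1, WT untreated library 2 or Cip2a-/- untreated library 1. The higher ones were Thbd, Robo4 (1.73 ± 0.56), a receptor that stabilises vessels, Plvap (1.18 ± 0.46) and Vwf (1.33 ± 0.58). Robo4 ran at 175, 158 and 160 CPM in untreated WT, 49.0, 108 and 129 CPM in endpoint WT, 111, 107 and 101 CPM in untreated Cip2a-/- and 86.0, 216 and 316 CPM in endpoint Cip2a-/- glands. Both endpoint groups were wide, and library 1 was the lowest gland of each. Cip2a-/- endpoint library 3 had the highest summed endothelial markers, at 5613 CPM beside at most 3834 CPM in the other 11 glands. It also had the highest summed erythroid markers, at 18420 CPM beside at most 2788 CPM. The part of blood content in the endothelial values was not tested. Fibroblast genes had 2 of 15 higher (Dcn and Ly6c1, median 1.07), collagens 1 of 23 (0.66) and matrix remodelling genes 3 of 20 (0.94). Collagens, at 1 of 23, were near the share of all genes. Counts reached 9 for fibroblast and 9 for matrix remodelling genes without WT endpoint library 3, and 6 for collagens without WT endpoint library 2, and the fibroblast count was 0 without Cip2a-/- endpoint library 3. The medians of collagens and matrix remodelling genes were 0.36 and 0.58 without WT endpoint library 1. The higher matrix remodelling genes were the matrix proteases Adamts1 (1.14 ± 0.39) and Adamts5 (1.69 ± 0.59) and osteopontin (Spp1, 5.96 ± 1.69), whose endpoint Cip2a-/- glands were at 898, 8.65 and 23.2 CPM. Spp1 rests on that 1 gland and had 1.66 without it. Over these lists the median change in WT glands was -1.37 for collagens and -1.10 for fibroblast genes, against -0.71 and -0.29 in Cip2a-/- glands, and summed fibroblast markers were lowest in WT endpoint library 1, at 1886 CPM beside 5599 to 20220 CPM in the other 11 glands.

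**Figure D4:**
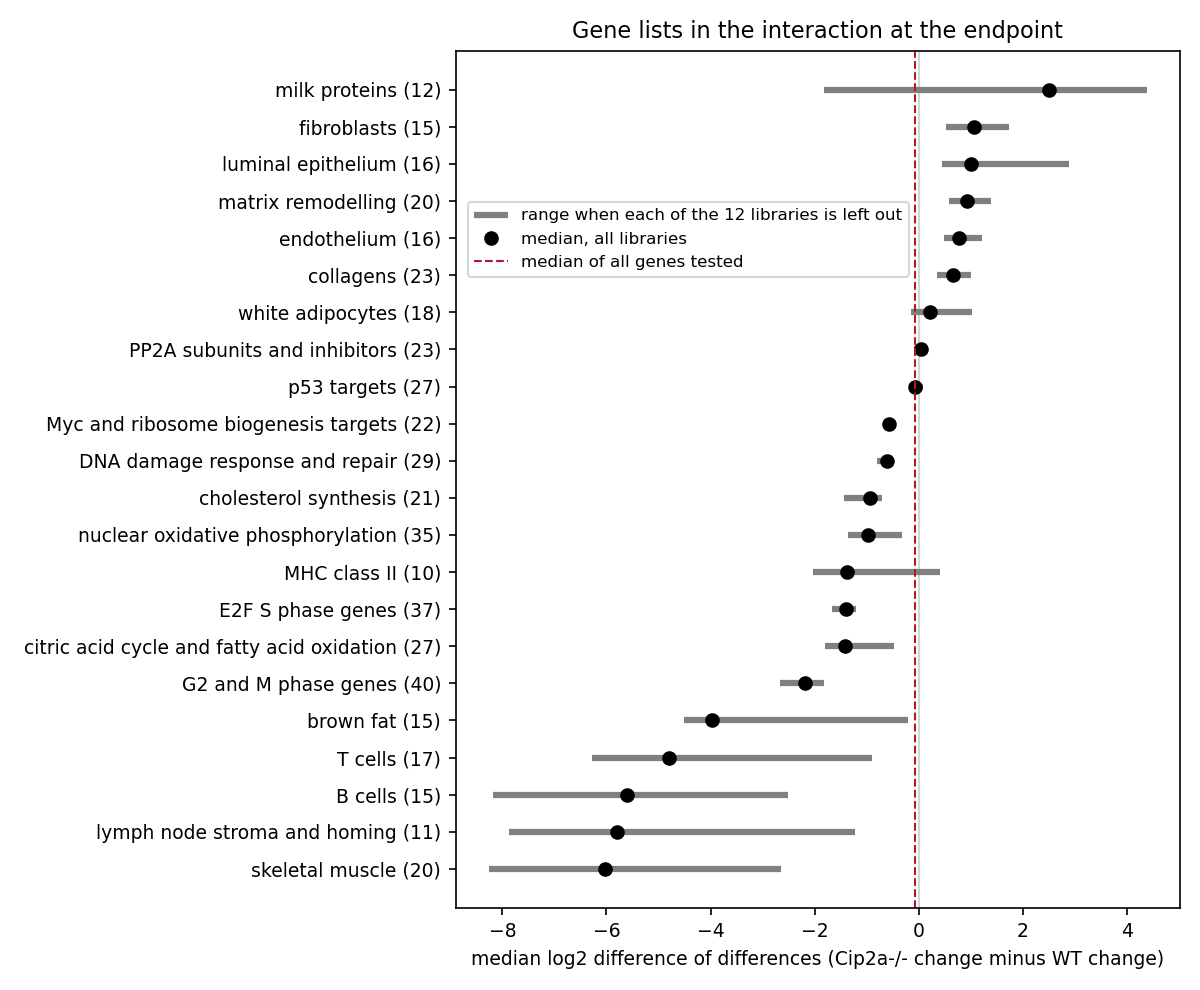
Median interaction (log2, horizontal axis) of 22 gene lists, number of genes tested in brackets; points are the median with all libraries, grey bars the range when each of the 12 libraries is left out, and the dashed line is the median of all genes, -0.06. The bars are short for the S phase (-1.66 to -1.20) and G2 and M lists (-2.67 to -1.81) and long for lymphocyte, brown fat, muscle and milk protein lists.

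Lymphocyte, muscle and brown fat markers had the most negative medians, and these rest on few glands. T cell genes were lower in 14 of 17 cases with a median of -4.80, and B cell genes in 10 of 15 with -5.60, beside 6.79% of all genes. Cd8a, the co-receptor of cytotoxic T cells, was at 13.9, 1.51 and 1.94 CPM in untreated and 78.2, 1.90 and 1.01 CPM in endpoint WT glands, and at 12.6, 2.31 and 70.1 CPM in untreated and 1.25, 2.31 and 1.38 CPM in endpoint Cip2a-/- glands. WT endpoint library 1 and untreated Cip2a-/- library 3 were far above the rest, and all 3 endpoint Cip2a-/- glands were low. Among B cell genes, Ms4a1, which encodes CD20, was at 161 CPM in WT endpoint library 1, 60.5 CPM in untreated Cip2a-/- library 3 and between 0.253 and 33.5 CPM elsewhere. Without WT endpoint library 1 the T cell median was -0.90 with 0 of 17 genes lower, and the B cell median -2.51 with 0 of 15 lower. Without untreated Cip2a-/- library 3 the lower genes numbered 0 and 2, without WT untreated library 2 they numbered 3 and 3, without WT untreated library 3 they numbered 4 and 4, without Cip2a-/- endpoint library 2 they numbered 4 and 3, without Cip2a-/- endpoint library 3 they numbered 6 and 3, and without Cip2a-/- endpoint library 1 they numbered 5 and 13. With both WT endpoint library 1 and untreated Cip2a-/- library 3 left out the medians were 0.57 and -1.02. The lymph node list (6 of 11 lower, median -5.80) and MHC class II (3 of 10, -1.38) also moved with single glands, with -1.23 (1 lower) and 0.42 (0 lower) without WT endpoint library 1. No MHC class II gene was lower without untreated Cip2a-/- library 3 either.

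Skeletal muscle genes were lower in 3 of 20 cases, beside 6.79% of all genes, with a median of -6.03. That median was -2.65 with 1 gene lower without WT endpoint library 1, and -8.26 with 7 lower without WT untreated library 1, the count also reached without WT endpoint library 2. The markers were at 60913, 66.1 and 3666 summed CPM in endpoint WT and 151, 114 and 499 CPM in endpoint Cip2a-/- glands, and at 47045, 7443 and 243 CPM and 21593, 141 and 9633 CPM in the untreated groups. Single glands of the other 3 groups held far more muscle RNA than any endpoint Cip2a-/- gland. Brown fat genes were lower in 9 of 15 cases with a median of -3.98, and -0.21 with 1 lower without WT endpoint library 1. Ucp1, the uncoupling protein of heat production, was at 22.5, 130 and 14.6 CPM in untreated WT, 5835, 0.929 and 0.190 CPM in endpoint WT, 318, 283 and 6.37 CPM in untreated Cip2a-/- and 8.27, 29.0 and 1.88 CPM in endpoint Cip2a-/- glands. Its interaction of -9.08 ± 3.34 became 2.58 without that library. The labels give the tissue as mammary gland, and luminal epithelial markers were present in all 12 glands but lowest there, at 60.2 summed CPM beside 702 to 4347 CPM in the other 11. Of the members tested, no T cell, B cell, brown fat or luminal epithelial marker was at 0 reads in any of the 12 glands. The part of these tissues in the other results was not tested.

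**Figure D5:**
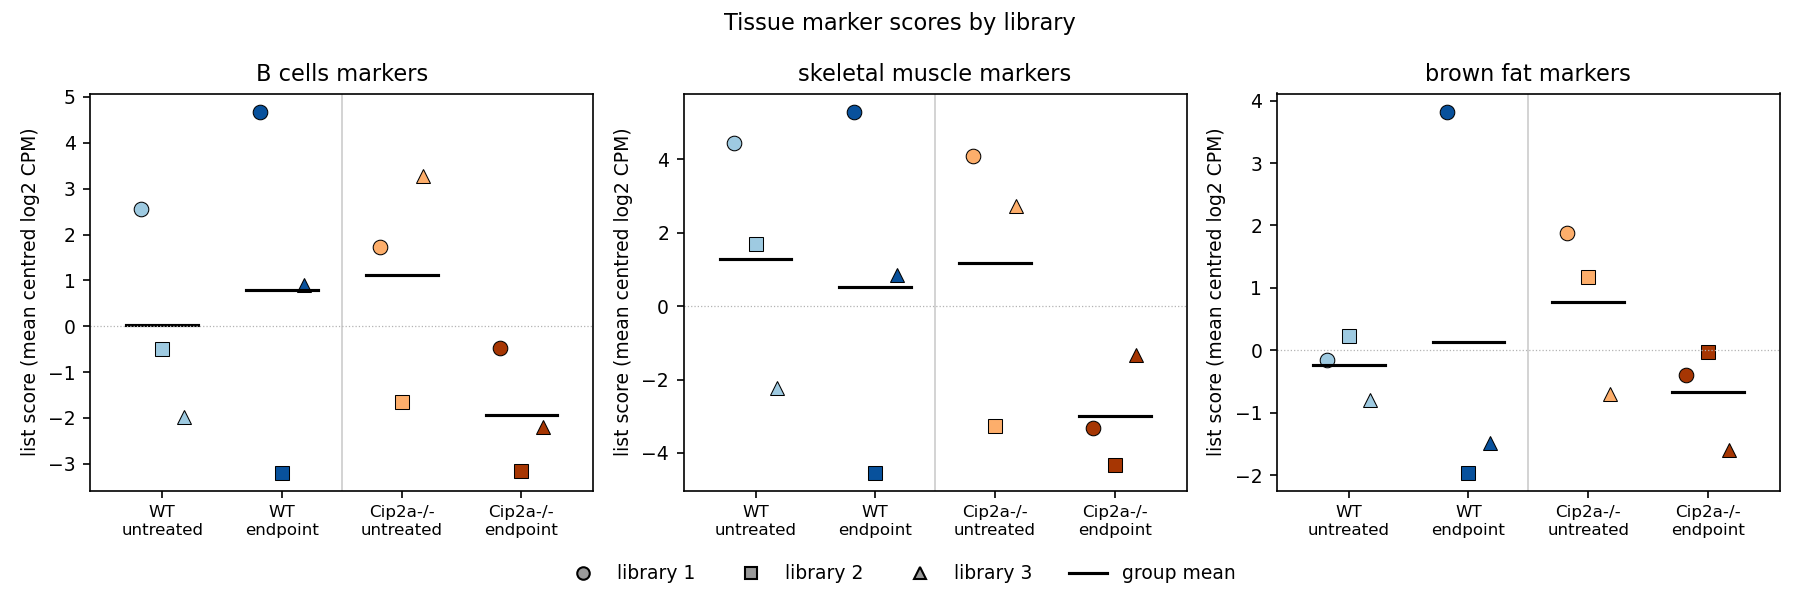
Score of each gland (mean centred log2 CPM, vertical axis) for B cell, skeletal muscle and brown fat markers in the 4 groups, with points for libraries and bars for group means. WT endpoint library 1 is the highest gland in all 3 panels, at 4.68, 5.30 and 3.82.

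Oxidative metabolism genes, abundant in muscle and brown fat, were low in the interaction as well. Of 27 genes of the citric acid cycle and fatty acid oxidation 14 were lower and 1 higher (median -1.41), and of 35 nuclear genes of oxidative phosphorylation 6 were lower, with all 35 negative (median -0.97). The shares of all genes were 6.79% lower and 3.24% higher. The count of 6 was 31 without WT endpoint library 2, and 0 without WT endpoint library 1, WT untreated library 2 or 3, Cip2a-/- untreated library 1 or Cip2a-/- endpoint library 3. Without WT endpoint library 1 the medians of the lists were -0.48 and -0.33, and 0 of the 27 genes were lower. The count of 14 was also 0 without Cip2a-/- untreated library 1 or Cip2a-/- endpoint library 3, between 1 and 9 without any 1 untreated WT library, Cip2a-/- untreated library 2 or Cip2a-/- endpoint library 1, and 23 without WT endpoint library 2. Cholesterol synthesis genes were lower in 5 of 21 cases with all 21 negative (median -0.93), among them the squalene epoxidase gene Sqle (-1.53 ± 0.60). That count was 12 without Cip2a-/- endpoint library 1, where the median was -1.43, and 1 without WT endpoint library 1, where the median was -0.71, as well as without Cip2a-/- untreated library 2 or Cip2a-/- endpoint library 3. The higher gene of the oxidation list was Cpt1a, the liver form of the enzyme that admits fatty acids to mitochondria (1.34 ± 0.59), while Cpt1b, its muscle form, had -3.98 ± 1.64 and -0.21 without WT endpoint library 1.

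PP2A genes had a median close to 0. Of 23 subunits and inhibitors 1 was lower and 0 higher, beside 6.79% and 3.24% over all genes, and the median was 0.04, so the list did not stand out. The count of 1 was 3 without Cip2a-/- endpoint library 2. The lower gene was Set, an inhibitor of PP2A like Cip2a, at 94.3, 85.9 and 83.9 CPM in untreated and 150, 134 and 117 CPM in endpoint WT glands, and 86.9, 130 and 117 CPM in untreated and 111, 91.0 and 106 CPM in endpoint Cip2a-/- glands. The WT groups did not overlap, the Cip2a-/- groups did, and the interaction was -0.72 ± 0.22. The catalytic subunit gene Ppp2ca had -0.54 ± 0.26 with an unadjusted p of 0.0529. Of 22 Myc and ribosome biogenesis targets 5 were lower and 0 higher, with a median of -0.57 and values from -1.28 to 0.37. The count of 5 was 13 without Cip2a-/- untreated library 1 and 0 without WT untreated library 2 or Cip2a-/- untreated library 2, and 0 of the 22 kept an unadjusted p under 0.05 in every leave-one-out fit. The lower genes included Odc1, the rate-limiting enzyme of polyamine synthesis, at -0.89 ± 0.35, and Polr1a, a subunit of RNA polymerase I, at -0.58 ± 0.22. Myc itself had -1.05 ± 0.74, with an unadjusted p of 0.176.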

How the data were processed

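Members and gene lists were chosen with earlier results of these data known, and the roles within lists and genes named beyond the rule were chosen after values were seen. Libraries were made with a stranded polyA mRNA kit, per the labels' protocols. The authors deposited raw read counts per gene, one column per library, and all columns matched a sample. The submitters' processing notes name bcl2fastq 2.17, STAR 2.5.2b, Subread 1.5.1 and mm10. Which annotation was counted, whether strand was used and how multi-mapping reads were handled is not stated there, so genes that overlap or have near-identical copies are uncertain.

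From the deposited counts, genes were filtered with filterByExpr (minimum count 10, minimum total 15), scaled by TMM and fitted with edgeR 4.0.16 (quasi-likelihood F-test, R 4.3.3) over all 18 libraries in 6 groups, with Benjamini-Hochberg adjustment over the 15482 of 23337 genes tested and calls at an adjusted p under 0.05. An SE is the log2 fold change divided by the square root of F. Scores use log2 CPM with a prior count of 2. DESeq2 1.42.0, limma 3.58.1 (voom, with and without library quality weights), another scaling, other filters, a robust fit, the 12 libraries alone, a replicate block and leaving out each library were alternatives; 1 more, without 2 glands, was added after the data were seen. The scripts were tested on simulated data.

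Genes picked by rank had a mean of at least 5 CPM in at least 1 of the 4 groups and no clone name. They were the 10 with the smallest interaction p in each direction and the 6 in each direction that held in all 12 leave-one-out fits. The 4 in each direction with opposite changes without overlap were added. Also named were Cip2a, up to 4 members of each list described and every gene called, which include genes under 5 CPM such as Chek1. Medians and counts were computed for 48 lists, of which 22 were carried through every alternative. Several more are given in the closing section. Coordinates are RefSeq GRCm38: of the 23337 symbols, 21504 were matched by the deposited Entrez identifier, 1623 by synonym and 4 by symbol, and 206 were not matched. Totals per library were 16121743 to 24586404 reads over the 18 libraries, so levels under 1 CPM rest on few reads. Same-numbered libraries of different groups correlated between -0.392 and 0.660 (median 0.10, 9 of 18 pairs over 0.1). Differently numbered ones correlated between -0.716 and 0.658 (median -0.03, 8 of 36 pairs over 0.1). The numbers were not used to pair the samples in the main fit, and these values do not settle whether they are paired. Some genes are not reported here.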

Additional observations from a re-analysis of the deposited data

How the results depend on the processing

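The 24 genes named by rule, Cip2a among them, kept their direction in all 528 values under the alternatives. Apart from Cip2a they were chosen for a small interaction p, and some of them also for holding in all 12 leave-one-out fits. Those fits are among the alternatives, so the agreement partly follows from the choice and is no support for these genes. Of the 24, 16 passed the test under at least 1 alternative, 15 of these by DESeq2 and Xrcc6 without WT endpoint library 2. The medians of the S phase and G2 and M lists stayed negative in every alternative run. With DESeq2 the interaction had 34 calls, the WT endpoint change 306, the Cip2a-/- endpoint change 277, the genotype difference 6 in untreated and 89 in endpoint glands. The fit to the 12 libraries alone gave 0 calls for the WT change, 0 for the genotype difference at the endpoint, and 10 lower G2 and M genes, 4 lower B cell genes and 2 lower genes of the citric acid cycle and fatty acid oxidation.

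With voom, 547 genes were lower at an unadjusted p under 0.05, and with library quality weights 606, beside 1052. The lower share of genes at an unadjusted p under 0.05 was 67.7%, and 51.4% with voom, 54.0% with quality weights, 57.1% with the block described below and 49.6% without WT endpoint library 1 and Cip2a-/- untreated library 3. Voom and quality weights gave medians of -2.54 and -2.35 for T cells, -3.41 and -2.42 for the lymph node list, -1.59 and -1.18 for brown fat and -0.044 and -0.11 for PP2A genes. Lower T cell and B cell genes numbered 0 under both, and lower genes of the citric acid cycle and fatty acid oxidation 1 and 6. Quality weights gave 17 calls for the WT change and 0 for the genotype difference at the endpoint.

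Without both WT endpoint library 1 and Cip2a-/- untreated library 3, a setting added after the data were seen, 364 genes were lower, and calls numbered 3 for the WT change, 1 for the Cip2a-/- change and 0 for the genotype difference at the endpoint. Medians were 0.57 for T cells, -1.02 for B cells, -0.53 for the lymph node list, 1.37 for MHC class II, -2.35 for muscle, -0.53 for brown fat and 0.18 for p53 targets. Lower genes numbered 17 (S phase), 6 (G2 and M), 0 (T cells), 0 (B cells) and 3 (citric acid cycle and fatty acid oxidation).

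Leaving out each library in turn, calls ranged from 0 to 1 for the interaction, 0 to 46 for the WT change, 0 to 9 for the Cip2a-/- change and 0 to 6 for the genotype difference at the endpoint. Higher genes ranged from 297 to 1604 and lower genes from 439 to 1771, the lowest counts without WT endpoint library 1 and the highest without WT endpoint library 2. Medians ranged from -6.28 to -0.90 for T cells, -8.17 to -2.51 for B cells, -7.88 to -1.23 for the lymph node list, -2.03 to 0.42 for MHC class II, -8.26 to -2.65 for muscle, -4.52 to -0.21 for brown fat, -1.36 to -0.33 for oxidative phosphorylation and -1.79 to -0.48 for the citric acid cycle and fatty acid oxidation. They ranged from 0.48 to 1.22 for endothelium, 0.53 to 1.74 for fibroblasts, 0.45 to 2.90 for luminal epithelium, -1.82 to 4.39 for milk proteins and -0.091 to 0.039 for PP2A genes. Counts of lower genes ranged from 10 to 38 (G2 and M), 0 to 16 (T cells), 0 to 14 (B cells) and 0 to 23 (citric acid cycle and fatty acid oxidation). The cause of these shifts was not tested.

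With the replicate number as a block, the interaction again had 0 calls. The WT change had 20, and lower genes numbered 15 (G2 and M), 5 (T cells) and 9 (citric acid cycle and fatty acid oxidation). Same-numbered libraries of different groups correlated over 0.1 in 9 of 18 pairs (median 0.10), and differently numbered ones in 8 of 36 (median -0.03). The numbers were not used as a pairing in the main fit, and these values do not settle whether the samples are paired.

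With 3 libraries per group and no gene past the adjusted threshold, the values describe these glands. Genes at few reads, Ect2, Chek1 and Ttk among them, have wide errors, and a fitted value against a gland near 0 reads, as for Ucp1, Myh2 or Lalba, depends on the prior count.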

Other observations

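Epithelial and milk genes varied between single glands. Luminal progenitor genes were positive in 13 of 15 cases with a median interaction of 1.36, but 1 was higher at an unadjusted p under 0.05, Lalba, a milk protein gene (8.35 ± 2.61, and 2.78 without Cip2a-/- endpoint library 1). Luminal progenitor genes numbered 7 higher without WT endpoint library 2. Of 16 luminal epithelial genes 0 were higher (median 1.01), and 14 without WT endpoint library 2 (median 2.90), and of 12 milk protein genes 1 (median 2.5, and -1.82 with 0 higher without Cip2a-/- endpoint library 1). Over all genes 3.24% were higher and 6.79% lower.

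Mast cell genes were positive in 8 of 8 cases with a median of 1.23, and 1 was higher, the transcription factor gene Gata2 (1.21 ± 0.50). The count of 1 was 5 without WT endpoint library 3, and 0 without WT untreated library 2, Cip2a-/- untreated library 1, WT endpoint library 1 or Cip2a-/- endpoint libraries 2 or 3. Of 18 TGF-beta and Wnt targets 3 were higher, Id3 (1.13 ± 0.43), Ctgf (2.06 ± 0.87) and Nkd1 (1.34 ± 0.60), with a median of 0.39, and the count was 1 without WT untreated library 2 or Cip2a-/- endpoint library 3 and 5 without WT endpoint library 2. White adipocyte genes had a median of 0.22 with 1 of 18 higher, and Npr3 was that gene (2.78 ± 1.10). The count was 4 without WT endpoint library 2 and 0 without Cip2a-/- endpoint library 2. Genes of de novo fatty acid synthesis had a median of -1.35 with 2 of 21 lower, and 13 without Cip2a-/- endpoint library 1 and 0 without WT untreated library 2 or 3, Cip2a-/- untreated library 1, WT endpoint library 1 or Cip2a-/- endpoint library 3. Hypoxia and glycolysis genes had 3 of 21 lower and 1 higher, with a median of -0.89, and -0.22 with 0 lower without WT endpoint library 1. None were lower without WT untreated library 3 either, and 5 without WT endpoint library 2. The shares of all genes were 3.24% higher and 6.79% lower, and the adipocyte and fatty acid synthesis counts were near them.

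Of 79 cytosolic ribosomal protein genes 0 were higher or lower, beside 3.24% and 6.79% of all genes. Their median was -0.05 (-0.33 to 0.19 when each library was left out). Other lists had medians near that of all genes but moved with single glands. Neutrophil genes had a median of 0.14 (-1.73 to 1.31) with 0 of 13 past an unadjusted p of 0.05, or 3 lower without Cip2a-/- endpoint library 3, macrophage genes -0.13 (-0.50 to 0.68) with 1 of 16 lower, and interferon-stimulated genes 0.14 (-0.54 to 0.38) with 0 of 20, and 6 of 20 lower without Cip2a-/- endpoint library 1. Ahr targets, the genes of the receptor that binds DMBA, had a median of 0.23 (0.08 to 0.79 when each library was left out) with 1 of 10 higher, Nqo1.

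Xrcc6 had 138 and 82.0 CPM in WT endpoint libraries 1 and 3 and 33.8 CPM in library 2, a split within 1 group that the labels do not account for. Pigo, which acts in the synthesis of membrane anchors, had an interaction of -0.87 ± 0.22, and Zfp961 and the chromatin protein gene Atad2, both with opposite changes without overlap, had -1.06 ± 0.27 and -1.61 ± 0.42.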
